A study of Rattus norvegicus with 10 samples.

Results

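The genes described here are 10 genes of the extracellular matrix and its turnover in rat thyroid cells: the proteases Adamts9 and Adamts1, the protease inhibitor Timp1, the proteoglycan biglycan (Bgn), the collagens Col1a1, Col4a1 and Col4a2, the glycoproteins Fn1 and Sparc and the receptor subunit Itga5. Every probe whose transcript accession belongs to one of them was taken, which gave 13 of the 30367 probes on the array for 9 of the 10 genes, out of 15154 genes that could be named. Col4a2 had no probe matched to it and was not analysed here. The genes were chosen by their log2 ratios of siFoxE1 over reference on these arrays, so all their values in siFoxE1 cells against either reference are a description and carry no test. PCCl3 is a rat cell line derived from thyroid follicles that keeps thyroid functions in culture. The cells were transfected with 25 nM of an siRNA pool against FoxE1 (siFoxE1) or with 25 nM of a non-targeting siRNA pool (siScramble), or were left untreated (wt), and all were grown in the same medium with thyrotropin and 5 further hormones or factors. RNA was collected after 48 h and hybridized to 10 Agilent rat arrays that read a Cy5 and a Cy3 dye. In each of 2 comparisons, siFoxE1 PCCl3 vs siScramble PCCl3 and siFoxE1 PCCl3 vs wt PCCl3, 4 arrays each held a single culture of both conditions, siFoxE1 being in Cy5, and the fifth held RNA pooled over cultures, in the opposite dyes. The siFoxE1 extract of a culture number was used in both comparisons, so their values are not independent, and n is 4 cultures throughout.

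The extracellular matrix is the protein scaffold that surrounds cells. Thyroid follicular cells sit on a basement membrane of type IV collagen, laminin and proteoglycans, while fibrillar type I collagen belongs mainly to the connective tissue between follicles. Secreted metalloproteases of the ADAMTS family cut matrix proteoglycans, tissue inhibitors of metalloproteases restrain such enzymes, and integrins tie the cell to fibronectin and other matrix proteins. FoxE1 is a forkhead transcription factor of the thyroid lineage.

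Each array had 58717 spots, of which 56.8 to 60.3% in Cy5 and 60.6 to 68.2% in Cy3 were well above background. Saturated spots numbered 0, and precision is set by the few arrays. In the study's design drawing the colour key opposes the dyes named by the labels. Signs here follow the labels, by which Foxe1 itself had a fitted log2 ratio of -0.80 in siFoxE1 against siScramble cells and of -0.86 against wt cells, below 0 on all arrays. All 9 thyroid follicular cell markers were well above background in all 20 array channels. Of 6 epithelial markers only Cdh1 and Ocln were, whereas Epcam was in 0, Krt8 in 2 and Krt18 and Cldn3 in 1 of the 20 channels. The arrays lay on 2 slides, with siScramble replicate 3 and the siScramble pool on the second slide and the other 8 arrays on the first.

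The study names the FoxE1 core motif both as ACAAA and as AAACA, and looked for it close to a motif of the factor NF1/CTF (TTGG) over a wider stretch around the start. Here both spellings were searched on both strands in the 250 bases before the start that RefSeq promoter entries of rat build GRCr8 use, AAACA having been added after the data were seen. This start is not always the end of the gene as annotated, since the Timp1 entry lies inside its gene and that of Adamts9 overlaps the first bases of its gene. Of the 10 genes 7 had an entry, all but Bgn, Col1a1 and Fn1. ACAAA was found in 1 of the 7, Col4a2, where it lies on the minus strand at -101 to -97 and overlaps a TTGG at -97 to -94. The same motif was in 43.6% of 33469 promoters. TTGG was found in 7 of 7, against 86.6% of all promoters, and TTGG followed after 5 to 30 bases by ACAAA in 0 of 7, against 5.75%. AAACA was found in 1 of the 7, Adamts1, against 47% of all promoters, and TTGG followed by AAACA at the same distance in 0 of 7, against 6.36%. The 7 entries had 55.6 to 75.2% G and C bases, against a median of 51.2% over all promoters. The shares were not adjusted for this, so no lack of the A-rich motifs is read from them. The upstream bases are shown for Adamts9 and Itga5, whose ratios are the subject below, and for Col4a2 as the promoter that holds ACAAA. They read 5′ to 3′ toward the start, with ACAAA and TTGG in capitals on either strand.
Adamts9, chr4:127019877-127020126, minus strand: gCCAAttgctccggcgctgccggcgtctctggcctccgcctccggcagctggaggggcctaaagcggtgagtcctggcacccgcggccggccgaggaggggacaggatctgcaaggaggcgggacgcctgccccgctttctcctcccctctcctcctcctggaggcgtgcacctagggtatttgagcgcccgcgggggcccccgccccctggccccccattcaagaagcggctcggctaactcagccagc
Itga5, chr7:136381306-136381555, minus strand: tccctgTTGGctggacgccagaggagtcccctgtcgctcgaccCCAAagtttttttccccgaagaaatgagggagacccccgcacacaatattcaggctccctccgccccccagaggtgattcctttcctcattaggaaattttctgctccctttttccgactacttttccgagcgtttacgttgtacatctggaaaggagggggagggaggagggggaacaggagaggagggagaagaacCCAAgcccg
Col4a2, chr16:84885521-84885770, minus strand: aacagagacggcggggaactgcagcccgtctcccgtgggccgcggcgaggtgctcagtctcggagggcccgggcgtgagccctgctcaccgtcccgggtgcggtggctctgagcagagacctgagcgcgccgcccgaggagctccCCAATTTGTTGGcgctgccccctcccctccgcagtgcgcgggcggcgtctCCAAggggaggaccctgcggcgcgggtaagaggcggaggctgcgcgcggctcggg
Adamts9 has a single TTGG, read on the opposite strand at -249 to -246, and Itga5 has 3. A motif match is a description of these letters and not a measured binding site.

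Adamts9 RNA was higher in siFoxE1 cells than in both references on every array. The gene, on chr4:126847726-127019924 of GRCr8, encodes a secreted metalloprotease that cleaves the proteoglycans versican and aggrecan, as shown for the human and mouse proteins. Its probe A_44_P253208 gave log2 ratios of siFoxE1 over siScramble of 0.66, 1.05, 1.28 and 1.51 in cultures 1 to 4 and of 0.78 in the pool. Over wt they were 1.41, 1.19, 2.28 and 1.63, and 0.99 in the pool. All 10 ratios lay above 0, with the pooled array lowest against wt and culture 1 lowest against siScramble. The individual arrays averaged 1.12 ± 0.36 (SD, n = 4) over siScramble and 1.63 ± 0.47 (SD, n = 4) over wt. The fitted ratio, which gives equal weight to the mean of the 4 individual arrays and to the dye-swapped pool, was 0.95 over siScramble, or 1.93-fold, and 1.31 over wt, or 2.48-fold. By fitted ratio it stood at place 7 of 18124 probes against siScramble and at place 12 of 18525 against wt.

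**Figure D1:**
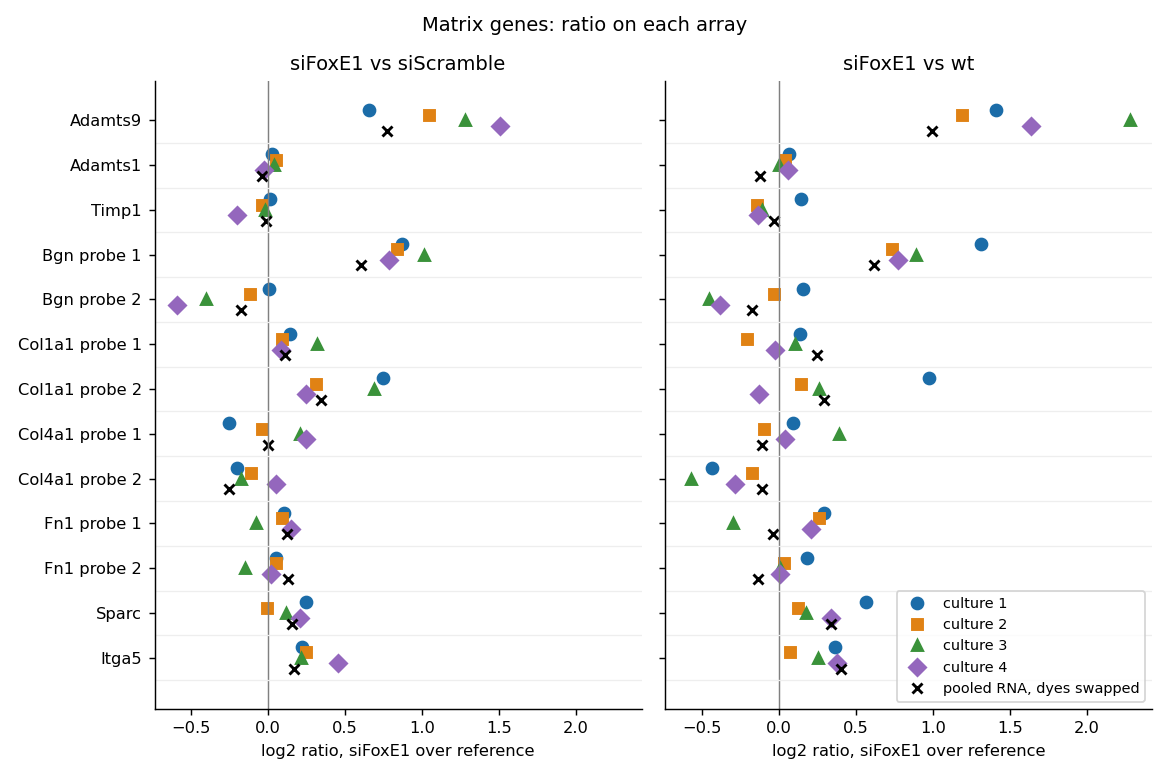
Log2 ratio of siFoxE1 over siScramble (left) and over wt (right) for each of the 13 probes, 1 point per array, with crosses for the dye-swapped pools. The Adamts9 points lie between 0.66 and 2.28 and those of Bgn probe 1 between 0.60 and 1.31, while most other probes scatter around 0; Adamts1 was not well above background on any array.

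As log2 level, the normalized brightness of one RNA extract, Adamts9 measured 10.26, 11.10, 10.78 and 10.49 in siFoxE1 cultures 1 to 4. In siScramble cultures it measured 9.60, 10.07, 9.50 and 8.97, and in wt cultures 8.86, 9.90, 8.50 and 8.86. The siFoxE1 levels did not overlap with those of either reference, and culture 2 was the highest of its condition in all 3 conditions. The share of all probes with such a lack of overlap was not computed. Nothing is therefore read from it, here or for the genes and marker lists below. The siScramble and wt levels overlapped. The wt cultures alone spanned 1.40, more than 97.1% of the 17804 probes measured in all conditions, whose median span in wt was 0.37. The siFoxE1 cultures spanned 0.84 and the siScramble cultures 1.10, where the median probe spanned 0.41 in both. One siFoxE1 extract measured on its 2 arrays differed by at most 0.04 for this probe, and its 2 spots on an array differed with a median SD of 0.03, so the spread between cultures was much larger than that between hybridizations.

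Adamts1, a related protease of versican and aggrecan on chr11:38418565-38427384, was not well above background in any of the 20 channels, although its probe A_42_P535644 was read from 10 spots on each array. No ratio is given for it. Timp1, an inhibitor of matrix metalloproteases on chrX:3766509-3772578, was also read from 10 spots by probe A_44_P461154 and was well above background in siFoxE1 cells on 4 of 5 arrays in each comparison, and in the reference on 5 of 5. Its log2 ratios averaged -0.06 ± 0.09 (SD, n = 4) over siScramble and -0.06 ± 0.14 (SD, n = 4) over wt. In the pools they were -0.01 and -0.03. Timp1 thus stayed within its spread between arrays, and the same siFoxE1 extract differed by up to 0.41 between its 2 arrays.

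The 2 probes of biglycan, a small leucine-rich proteoglycan that binds collagen fibrils, gave ratios of opposite sign. Both carry the same transcript accession, the one RefSeq transcript of Bgn (chrX:156348633-156360797). Probe A_43_P11812, called probe 1, had log2 ratios over siScramble of 0.87, 0.84, 1.01 and 0.79 in cultures 1 to 4 and of 0.60 in the pool. Over wt it had 1.31, 0.73, 0.89 and 0.77, and 0.62 in the pool. All 10 values were above 0, with means of 0.88 ± 0.10 over siScramble and 0.93 ± 0.27 over wt (SD, n = 4 each) and fitted ratios of 0.74, or 1.67-fold, and 0.77, or 1.71-fold. Probe A_64_P059895, called probe 2, had ratios over siScramble of 0.01, -0.12, -0.40 and -0.59, and of -0.17 in the pool. Over wt it had 0.16, -0.03, -0.45 and -0.38, and -0.18 in the pool. Probe 2 was above 0 in culture 1 and below 0 in the other 3 cultures and in the pool, in both comparisons. Its means were -0.28 ± 0.27 over siScramble and -0.18 ± 0.29 over wt (SD, n = 4 each).

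The ratio of Bgn probe 1 exceeded that of probe 2 on 5 of 5 arrays in each comparison, by 1.15 ± 0.28 over siScramble and by 1.11 ± 0.25 over wt on the individual arrays (SD, n = 4 each), and by 0.78 and 0.79 in the pools. Both probes were well above background on every array. The spots of probe 1 on an array differed with a median SD of 0.07 and those of probe 2 with 0.03, so the gap is larger than the spot error. In level, probe 1 measured 9.22, 8.20, 8.75 and 8.43 in siFoxE1 cultures 1 to 4. It measured 8.35, 7.35, 7.88 and 7.66 in siScramble cultures, and 7.92, 7.47, 7.71 and 7.64 in wt cultures. The siFoxE1 levels of probe 1 lay above all wt levels but overlapped with siScramble, where culture 1 was as high as 8.35. Probe 2 spanned 7.47 to 8.51 in siFoxE1, 7.48 to 8.72 in siScramble and 7.61 to 8.38 in wt cultures, with full overlap. Over the 12 extracts the levels of both probes had a Pearson r of 0.17, and of 0.62 once each condition's mean was removed; this is a description over extracts that share culture numbers and arrays. Which part of the transcript each probe reads was not analysed here, so the biglycan result is uncertain beyond the values of each probe.

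**Figure D2:**
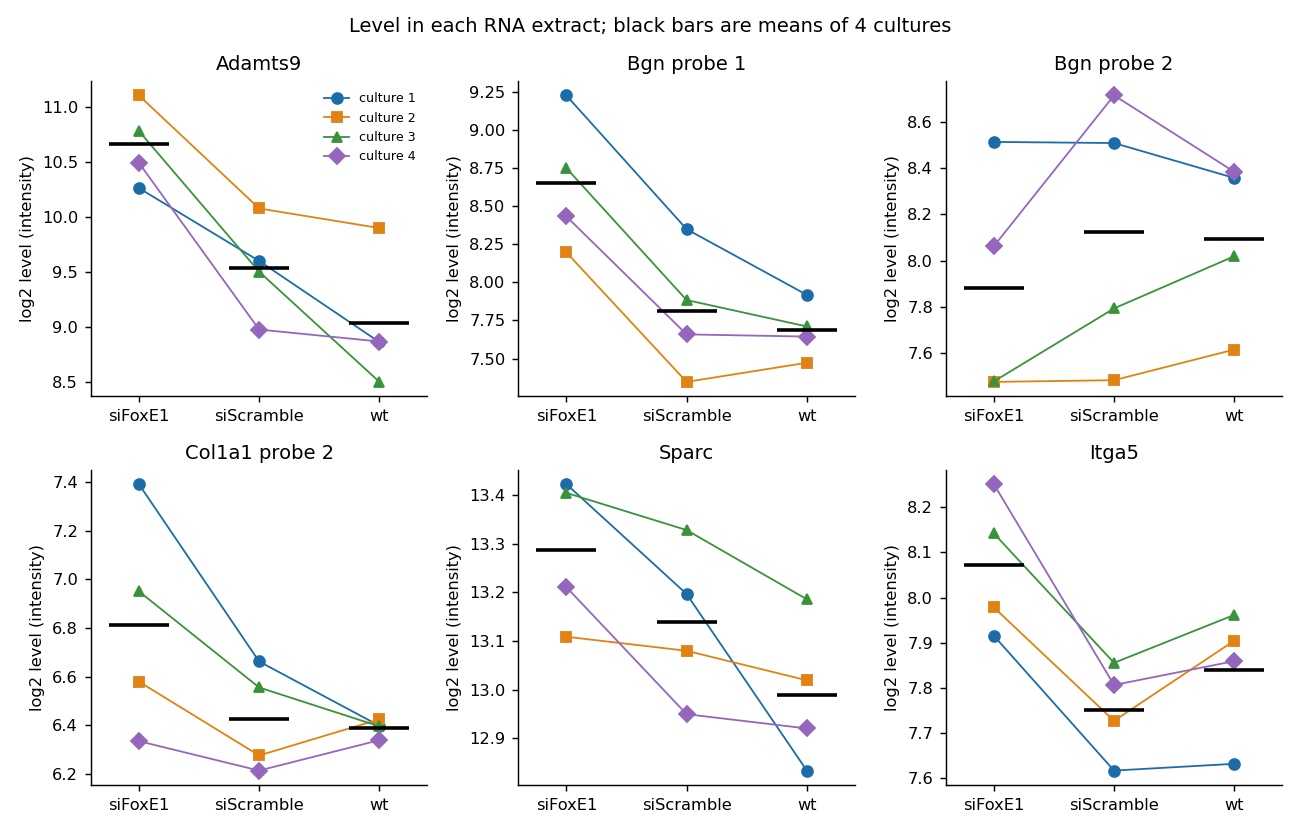
Log2 level of 6 probes in the 4 cultures of each condition, with siFoxE1 left, siScramble in the middle and wt right; lines join the same culture number and black bars are means. The siFoxE1 levels of Adamts9 lie at 10.26 to 11.10, above all siScramble and wt levels, whereas those of Bgn probe 2 overlap across the conditions.

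The collagens gave small or uneven ratios. Col1a1 (chr10:80380458-80397461) encodes a chain of fibrillar type I collagen and was read by 2 probes of one accession. Probe A_44_P350521 (probe 1, a single spot per array) had ratios over siScramble of 0.14, 0.09, 0.32 and 0.09, and 0.11 in the pool. Probe A_64_P040278 (probe 2) had 0.75, 0.31, 0.69 and 0.25, and 0.35 in the pool. Both probes were above 0 on all 5 siScramble arrays, and probe 2 was the higher on each, by 0.16 to 0.60. Over wt probe 1 averaged 0.00 ± 0.15 (SD, n = 4) with 0.25 in the pool. Probe 2 averaged 0.31 ± 0.47 (SD, n = 4) with 0.29 in the pool, and its cultures ran from -0.13 in culture 4 to 0.97 in culture 1. Against wt the individual arrays of Col1a1 therefore included values on both sides of 0 for both probes. Between its 2 arrays, one siFoxE1 extract differed by up to 0.59 for probe 2, which is larger than most of its ratios. With the processed signals of the scanner software in place of normexp-corrected medians its fitted ratio was 1.03 over siScramble and 0.94 over wt, against 0.42 and 0.30 in the main processing. These signals differ in both background and dye normalization, and without background subtraction the ratios were 0.52 and 0.41. Which step sets the size was not tested.

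Col4a1 (chr16:84885597-84996482) encodes a chain of the type IV collagen of basement membranes, and its gene lies head to head with that of Col4a2 (chr16:84749672-84885520). Probe A_64_P149501 (probe 1) averaged 0.04 ± 0.23 over siScramble and 0.11 ± 0.21 over wt (SD, n = 4 each), with pools at -0.00 and -0.11. Probe A_64_P293606 (probe 2) averaged -0.11 ± 0.12 over siScramble and -0.37 ± 0.17 over wt (SD, n = 4 each), with pools at -0.25 and -0.11. Probe 1 was mixed in sign in both comparisons, while probe 2 was below 0 on all 5 arrays against wt and on 4 of 5 against siScramble. Over the 12 extracts the levels of the 2 probes had r = -0.40, whereas the 2 probes of Fn1 had r = 0.81 and those of Col1a1 r = 0.70.

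**Figure D3:**
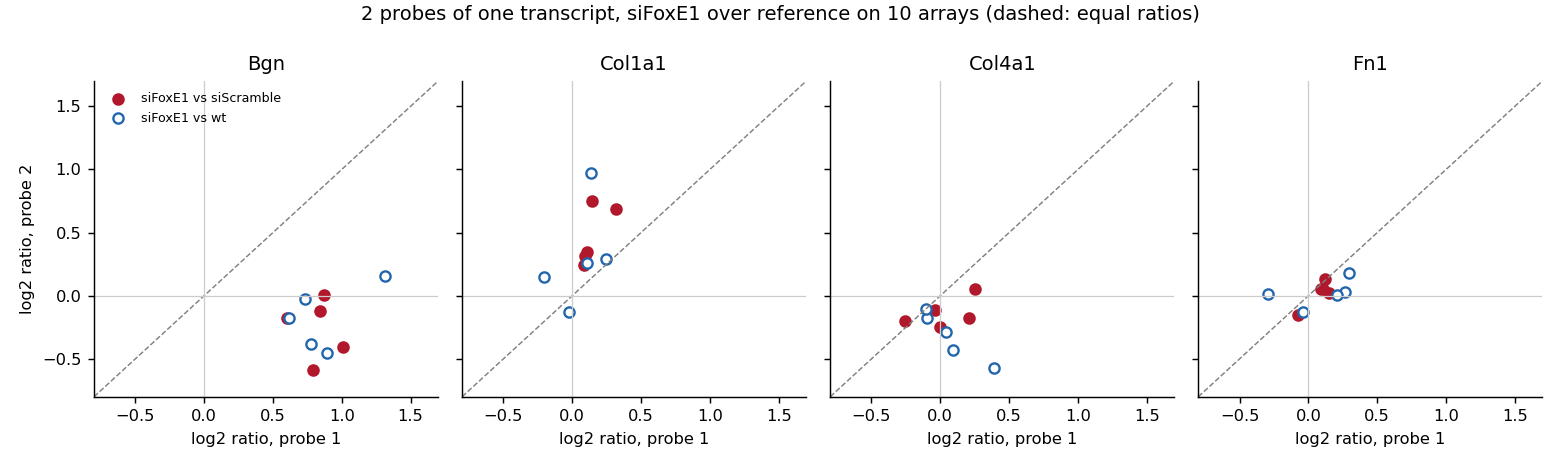
Log2 ratio of siFoxE1 over reference on probe 2 (y axis) against probe 1 (x axis) for the 4 genes with 2 probes, 1 point per array, filled for siScramble and open for wt; the dashed line marks equal ratios. All 10 Bgn points lie to the right of the line, by 0.76 to 1.42, whereas the Fn1 points lie near it and near 0.

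Fibronectin (Fn1, chr9:80645507-80714200), the adhesive glycoprotein to which the integrin with the Itga5 subunit binds, stayed near 0. Probe A_44_P681660 (probe 1) averaged 0.07 ± 0.10 over siScramble and 0.12 ± 0.28 over wt, and the single-spot probe A_64_P077570 (probe 2) -0.01 ± 0.10 and 0.06 ± 0.08 (SD, n = 4 each). The pools were at 0.12 and -0.04 for probe 1 and at 0.13 and -0.13 for probe 2, so no ratio of Fn1 kept one sign over the arrays of a comparison. Sparc (chr10:40017065-40038816), a collagen-binding matricellular glycoprotein, was read by probe A_44_P451357. Its ratios over siScramble were 0.25, -0.01, 0.12 and 0.21, and 0.16 in the pool. Over wt they were 0.57, 0.13, 0.18 and 0.34, and 0.34 in the pool. Sparc was thus above 0 on all 5 wt arrays and on 4 of 5 siScramble arrays, and its levels overlapped between conditions, at 13.11 to 13.42 in siFoxE1, 12.95 to 13.33 in siScramble and 12.83 to 13.19 in wt cultures.

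Itga5 (chr7:136358097-136381305), the receptor subunit, also kept one sign on all arrays. Its probe A_42_P783301 had ratios over siScramble of 0.22, 0.25, 0.22 and 0.46, and 0.17 in the pool. Over wt they were 0.36, 0.08, 0.25 and 0.38, and 0.40 in the pool. All 10 ratios were above 0, though small, with means of 0.29 ± 0.12 and 0.27 ± 0.14 (SD, n = 4 each) and fitted ratios of 0.23, or 1.17-fold, and 0.33, or 1.26-fold. The siFoxE1 levels, 7.92 to 8.25, lay above the siScramble levels of 7.62 to 7.86 but overlapped with the wt levels of 7.63 to 7.96.

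Of the 12 probes that were measured, 5 had a ratio above 0 on all 5 arrays against siScramble, namely Adamts9, Bgn probe 1, both Col1a1 probes and Itga5, and 0 had one below 0. Over all tested probes 7.77% were above 0 and 10% below 0 on all 5 arrays. Against wt 4 were above 0 on all arrays, namely Adamts9, Bgn probe 1, Sparc and Itga5, and 1 below, Col4a1 probe 2, where 9.24 and 12.8% of all tested probes were. These counts follow from how the genes were picked, and nothing is read from them. The median fitted ratio of the 12 probes was 0.12 over siScramble and 0.08 over wt, against -0.01 over all tested probes in both. With the slide as a block the fitted ratios over siScramble were 0.92 for Adamts9, 0.72 for Bgn probe 1, -0.20 for Bgn probe 2 and 0.39 for Col1a1 probe 2. Type I collagen and biglycan are also made by fibroblasts. Of 10 fibroblast markers, Col1a2, Pdgfra and Acta2 were well above background in all 20 channels, and Dcn, Lum and Fap were in 0. Col3a1, Pdgfrb and Postn were in 1 of the 20 channels and Thy1 in 5. The list's mean log2 level was 6.32 to 6.43 in siFoxE1, 6.35 to 6.42 in siScramble and 6.33 to 6.38 in wt extracts, so it overlapped between the conditions. Most of the list was near background, so this overlap does not show whether fibroblast RNA changed. In siFoxE1, siScramble and wt extracts, Col1a2 averaged 6.73, 6.74 and 6.75, Pdgfra 7.77, 7.70 and 7.70, and Acta2 7.12, 7.27 and 7.11. The mean level of the 6 epithelial markers was 6.76 to 6.87 in siFoxE1, 6.59 to 6.69 in siScramble and 6.50 to 6.62 in wt extracts, so siFoxE1 lay above both references with no overlap. Of these Cdh1, the epithelial cadherin, measured 8.45 to 8.69 in siFoxE1, 7.18 to 7.76 in siScramble and 6.88 to 7.65 in wt extracts. Ocln averaged 8.34, 8.21 and 8.14 in the same order. Epcam, Krt8, Krt18 and Cldn3 averaged 5.96 to 6.08 in all conditions and were not higher in siFoxE1 than in siScramble. The shift of the list mean was thus mostly that of Cdh1. Epcam, Krt8, Krt18 and Cldn3 were near background, so their values do not show whether epithelial markers shifted as a set. The part of Cdh1 in the ratios of the matrix genes was not tested.

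The difference between siScramble and wt cells was not used by itself to pick the genes. It is the ratio over wt minus that over siScramble, however, and so is built from the ratios that were used. Its p values for the 12 probes are therefore given as a description. The difference was fitted in limma over all 10 arrays, and the siFoxE1 extract of a culture cancels in its value. The main fit takes the arrays as independent, so its standard errors and p values do not use the pairing by culture number. Of the 12 probes 0 passed an adjusted p of 0.05, as did 0% of the 17804 probes tested, and 0 of the 12 had an unadjusted p under 0.05, which 3.39% of all probes had. With the culture number as a block 0 passed the adjusted threshold too, while 3 of the 12 had an unadjusted p under 0.05, as did 12.3% of all probes. These 3 were Adamts9, Sparc and Col4a1 probe 2, with adjusted p values of 0.281, 0.35 and 0.391 from limma. Adamts9 had the largest value. By culture its siScramble level exceeded that of wt by 0.75, 0.14, 1.00 and 0.13 on the log2 scale, and by 0.22 in the pool. The fitted difference was 0.45 (standard error 0.207, adjusted p = 0.988 from limma over 17804 probes, above 0 in 4 of 4 cultures), with an adjusted p of 0.281 to 1 over the alternatives. With the culture number as a block the fitted difference of Adamts9 was the same and its standard error was 0.141. Cultures 1 and 3 stood well above cultures 2 and 4 and the pool. Sparc was above 0 in 4 of 4 cultures as well, with a fitted difference of 0.16 (adjusted p = 0.988), and Col4a1 probe 2 in 0 of 4, with -0.18 (adjusted p = 0.988). Bgn probe 1 had 0.04 and probe 2 had 0.08. A p of this size does not show that siScramble and wt cells had the same level.

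**Figure D4:**
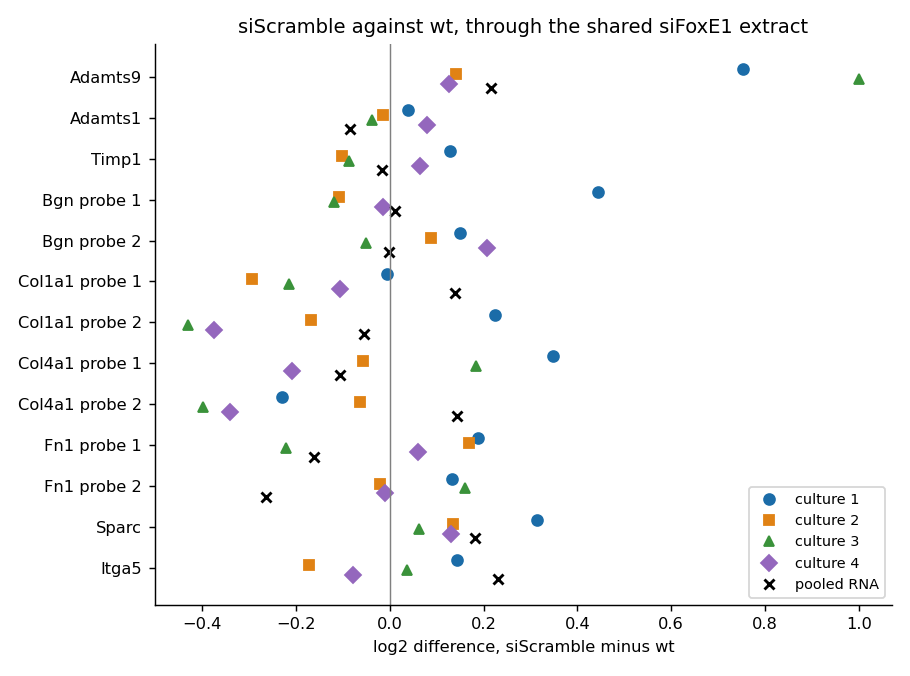
Log2 difference of siScramble minus wt for each probe, 1 point per culture and a cross for the pools, calculated through the siFoxE1 extract that both arrays of a culture share. Adamts9 runs from 0.13 to 1.00 and lies above 0 in all 4 cultures; the other probes lie within 0.45 of 0.

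In likeness of level over the 12 extracts (4 siFoxE1, 4 siScramble, 4 wt), the 5 genes nearest to Adamts9 among 9573 were Atp5mc2, a subunit of the mitochondrial ATP synthase, with a Pearson r of 0.97, and Cmbl (0.97), the ubiquitin ligase component Fbxo31 (0.97), Dpysl2 (0.97) and the actin nucleator Spire2 (0.96). For Bgn probe 1 they included the Hippo pathway kinase Lats2 (0.95), the chemokine Cxcl14 (0.94), desmin (Des, 0.93) and Rsph1 (0.93). For Bgn probe 2 they were the cystine transporter Slc7a11 (0.97), Spryd7 (0.97), Krtap1-5 (0.97), Zbtb42 (0.96) and the Golgi protein Golgb1 (0.96). The 2 Bgn probes thus shared none of their nearest genes. Adamts9 and Bgn probe 1 had r = 0.52 over all extracts and r = -0.46 once each condition's mean was removed. Among the 4 siFoxE1 cultures, Adamts9 was lowest in culture 1, where Bgn probe 1 was highest, and highest in culture 2, where Bgn probe 1 was lowest. Col1a1 probe 2 had r = 0.87 with Bgn probe 1, and Col4a1 probe 2 had r = -0.81 with Adamts9.

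The other genes of the matrix were taken from a list of 189 in 8 groups, each represented by its brightest tested probe. Of these 136 had a probe. The list was drawn up with earlier results of these data known, so its p values and shares are not an independent test. In limma 0 of 72 tested passed an adjusted p of 0.05 in siFoxE1 against siScramble cells, where 0.144% of 9715 genes did, and 0 of 75 against wt, where 0.0304% of 9880 did. At an unadjusted p under 0.05, 18 were higher and 5 lower against siScramble, 31.9% of those tested, against 16.1% of all genes (8.64% higher and 7.49% lower). Against wt 18 were higher and 5 lower, 30.7%, against 20.8% of all genes (10.6% higher and 10.2% lower). The median fitted log2 fold change of the list was 0.07 over siScramble and 0.06 over wt, against 0.00 over all genes in both. With the culture number as a block in a fit of all 10 arrays, 1 of 71 passed against siScramble, where 0.47% of 9578 genes did, and 13 of 71 passed against wt, 18.3%, where 10.6% of genes did. In that fit Itgb4, an integrin subunit of hemidesmosomes, rose in both comparisons, with log2 fold changes of 0.59 over siScramble (adjusted p = 0.0481) and 0.96 over wt (adjusted p = 0.00112). Over wt, Adamts7 (0.72), Bcan (0.72), Prelp (0.69), Bcam (0.68), Timp2 (0.64), Agrn (0.56), Lamb3 (0.50), Loxl3 (0.39), Tinagl1 (0.36) and Ltbp3 (0.34) rose as well, and Gpc4 (-0.27) and the syndecan Sdc2 (-0.55) fell, with adjusted p values of 0.00609 to 0.048 from limma. These genes were named after their values were seen, and 0 of them passed in the separate fits of 5 arrays. Of the genes that rose, Adamts7, Prelp and Timp2 were above 0 on 4 of 5 arrays over wt, and the others on 5 of 5. In siScramble over wt, the genes that rose had fitted values from 0.06 for Ltbp3 to 0.33 for Adamts7 and 0.37 for Itgb4 and Timp2. Gpc4 and Sdc2 had -0.14 and -0.15 there (adjusted p = 0.988 from limma for each gene). These differences are built from the ratios over wt by which the genes were named, so they are a description and nothing is read from them. The fit of all 10 arrays without the block passed 1 and 16 genes of the list, where 0.545 and 9.32% of 17804 probes passed.

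Of the 2 brightest genes of each group, 0 passed in the separate fits of 5 arrays with a dye term, whose values follow. Against siScramble, Agrn, Bcam and Col8a1 passed without the dye term (adjusted p = 0.0417, 0.0292 and 0.0228 from limma), and Bcam, Col8a1 and Mmp15 passed on the 4 individual arrays (0.0341, 0.0494 and 0.0289). Against wt, Agrn, Bcam and Tinagl1 passed without the dye term (0.0397, 0.0425 and 0.0497) and Mmp15 on the individual arrays (0.0362). Of all probes, 3.8% against siScramble and 4.56% against wt passed without the dye term. On the individual arrays 2.91 and 1.14% did. Among proteases, Mmp15 gave opposite signs on the individual arrays and on the dye-swapped pools, 0.57 ± 0.19 and -0.52 over siScramble and 0.57 ± 0.13 and -0.35 over wt (SD, n = 4 each), and Mmp14 had fitted values of 0.12 and 0.17. Among inhibitors, Timp2 had 0.27 over siScramble and 0.65 over wt (adjusted p = 0.304 and 0.234), and Timp3 -0.20 and 0.22. The individual arrays of Timp2 averaged only 0.04 ± 0.21 over siScramble and 0.40 ± 0.34 over wt (SD, n = 4 each). Its pools were higher, at 0.50 and 0.89. Among proteoglycans, agrin (Agrn), a heparan sulfate proteoglycan of basement membranes, had 0.36 and 0.53 (adjusted p = 0.245 and 0.234), and Gpc1 0.14 and 0.22. Among receptors, the laminin receptor Bcam had 0.50 and 0.73 (adjusted p = 0.253 and 0.239), and Itgb1, the partner of the Itga5 subunit, -0.06 and -0.11. For Gpc1 and Itgb1 the individual arrays and the pools differed in sign as well. Gpc1 had 0.30 ± 0.25 and 0.50 ± 0.25 on the individual arrays, and -0.02 and -0.07 in the pools. Itgb1 had -0.14 ± 0.29 and -0.50 ± 0.27 (SD, n = 4 each), and 0.01 and 0.29 in the pools.

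In the basement membrane group Tinagl1 had 0.26 over siScramble and 0.36 over wt, and Lama5 -0.10 and -0.19. In the other groups the values were 0.47 and 0.49 for Col8a1, 0.08 and -0.08 for Col18a1, 0.26 and 0.36 for Ltbp3, and 0.07 and 0.12 for Efemp2. For Efemp2 and Col18a1 the individual arrays and the pools differed in sign. Efemp2 had -0.12 ± 0.05 and -0.13 ± 0.08 on the individual arrays, and 0.26 and 0.37 in the pools. Col18a1 had -0.14 ± 0.01 and -0.18 ± 0.18 (SD, n = 4 each), and 0.30 and 0.03 in the pools. The collagen chaperone Serpinh1 had -0.18 and -0.10, and the collagen hydroxylase P3h1 -0.19 and -0.25. By group at an unadjusted p under 0.05, which 8.64% of all genes met as higher and 7.49% as lower against siScramble and 10.6 and 10.2% against wt, genes that modify or fold collagen had 1 of 12 higher and 4 lower when siScramble was the reference, and 2 of each with wt. The laminin group had 3 of 6 higher and 0 lower, and receptors 3 of 9 higher and 0 lower, in both comparisons. Proteases had 4 of 15 higher against siScramble and 4 of 16 against wt, with 0 lower. Of 10 proteoglycans, 3 were higher and 1 lower than in siScramble cells, and 4 were higher and 2 lower than in wt cells. Collagens had 2 of 10 higher against siScramble and 0 against wt, glycoproteins 1 of 8 against siScramble and 1 of 10 against wt with 1 more lower, and inhibitors 1 of 2 in both. Between siScramble and wt cells 0 of 71 genes of the list passed in limma, and at an unadjusted p under 0.05 2 were higher and 1 lower, 4.23%, against 3.42% of all genes (2.09% higher and 1.34% lower). The higher genes were Itgb4 and Timp2 (0.37 each) and the lower one was Ltbp4 (-0.27). With the culture number as a block 0 of 71 passed, where 0.0522% of genes did, and 14 had an unadjusted p under 0.05 (10 higher and 4 lower), 19.7%, against 12.9% of all genes.

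**Figure D5:**
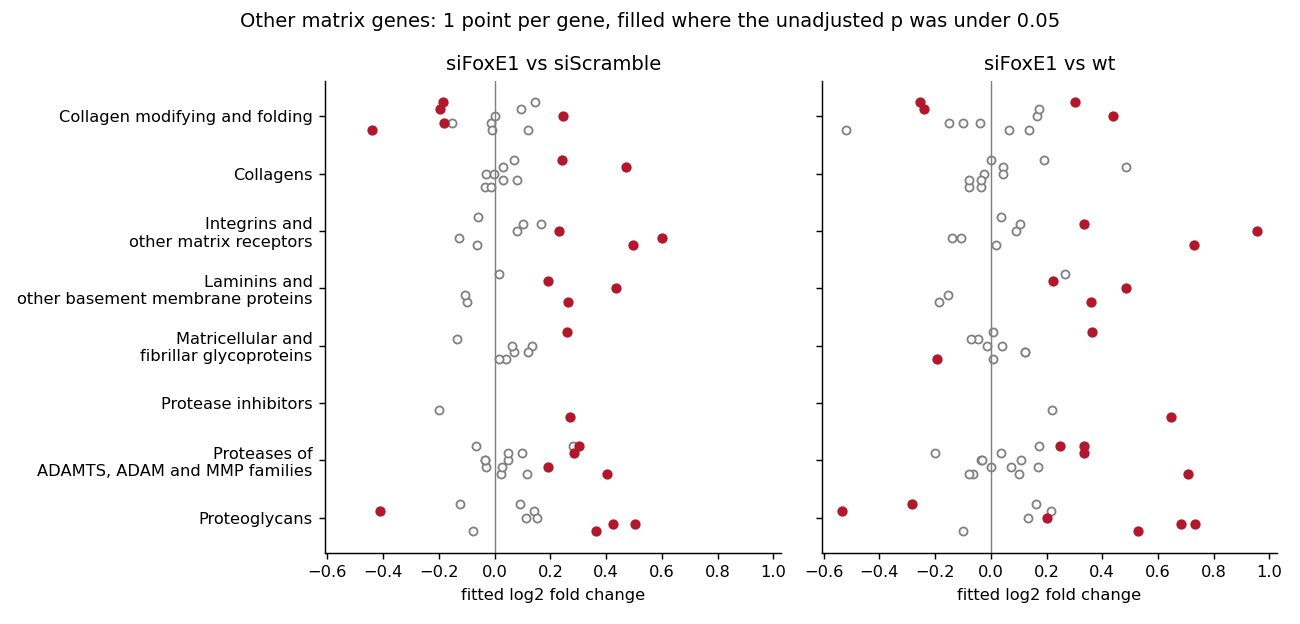
Fitted log2 fold change of siFoxE1 over siScramble (left) and over wt (right) for the tested genes of the wider matrix list, 1 point per gene in its group, filled where the unadjusted p was under 0.05. The values run from -0.44 to 0.60 over siScramble and from -0.53 to 0.95 over wt, and 0 genes passed the adjusted threshold.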

How the data were processed

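Gene expression was measured on 10 Agilent 2-colour rat arrays. The authors scanned them and quantified the spots with Feature Extraction 10.7.3.1, and the deposited intensity values are median spot and local background brightness per dye and background-subtracted, dye-normalized processed signals. The deposited log10 ratio of red over green was made by the same software and was not used. A separate deposited table holds normalized log2 ratios per array, made by the authors with loess and quantile steps, with limma 3.2.3 named in the submitters' processing notes; in it the pooled arrays have been turned to siFoxE1 over reference too (r = -0.704 and -0.657 with red over green). It served as an alternative.

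Background was removed from the median signals by normexp (offset 50), followed by within-array loess, between-array quantile normalization and averaging of spots per probe; control spots and outlier-marked spots, 1.25 to 1.6% per array, were left out. Testing was limited to probes well above background on 3 or more of the 5 arrays, in either the siFoxE1 channel or that of the reference. limma 3.58.1 (R 4.3.3, data.table version 1.17.8, jsonlite 2.0.0) fitted each comparison on its 5 arrays with a dye term, leaving 3 residual degrees of freedom, with Benjamini-Hochberg adjustment over all probes tested. The fit was tested on simulated data. The pool holds RNA of the same cultures but enters the fit as a separate array. With the dye term it leaves no residual, so its error is taken from the individual arrays and was not measured. In the fits with a block the pools form a block of their own. A log2 level is the normalized signal of one extract, with siFoxE1 extracts averaged over their 2 arrays. Of 30367 probes 17998 were named through their unversioned accession in RefSeq genes of GRCr8, which also gave positions. Python 3.11.15 served for motifs and plots, with matplotlib 3.10.9, numpy 2.4.6 and pandas 2.3.3.

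The replicate numbers pair the arrays, because the study's design drawing joins the arrays of a number through their siFoxE1 extract. Deviations of arrays from their comparison's mean correlated at r = 0.406 to 0.764 between same-numbered arrays and at -0.65 to 0.506 between others. The cultures are called independent silencing experiments in the study. The members and gene lists were chosen with earlier results of these data known. Named were every member probe, list genes past an adjusted p of 0.05, the 2 brightest tested genes of each list group, and the 5 genes most like Adamts9 and each Bgn probe in level; 1 of these is not reported here. Of 5 marker lists, the thyroid, epithelial and fibroblast ones are given in the text; 1 of 4 endothelial markers with a probe (Cdh5) and 3 of 6 macrophage and leukocyte markers (Cd68, Csf1r and Aif1) were well above background in all 20 channels, and Ptprc and Itgam in 0. Alternatives covered background, normalization, dye, filter, variance model, block, slide and left-out replicates.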

Additional observations from a re-analysis of the deposited data

Results flagged for a closer look

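Of 60 groups of 4 cultures examined among the member probes, 7 had 1 culture far from the other 3; chance alone gives about 1 in 20 groups. In siFoxE1 culture 1 the Timp1 log2 level was 6.88, against 6.43 to 6.50 in the other siFoxE1 cultures, and its ratio over wt was 0.15, against -0.14 to -0.11. The Col4a1 probe 1 level of siFoxE1 culture 1 was 11.04, against 11.68 to 11.75. Fn1 probe 1 had a ratio over wt of -0.30 in culture 3, against 0.21 to 0.29. Fn1 probe 2 had a ratio over wt of 0.18 in culture 1, against 0.01 to 0.03, and a level of 7.58 in siScramble culture 1, against 7.27 to 7.30. The Itga5 ratio over siScramble was 0.46 in culture 4, against 0.22 to 0.25.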

How the results depend on the processing

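The results were recomputed under 18 settings, and mean spot signals were not run because the columns read hold medians only. Among 24 fitted ratios of member probes, 408 values moved by less than the spread between cultures and 9 moved by more. Adamts9 ran from 0.89 to 1.12 over siScramble and from 1.20 to 1.63 over wt, Bgn probe 1 from 0.72 to 0.94 and from 0.71 to 0.99, and Bgn probe 2 from -0.32 to -0.17 and from -0.24 to -0.13. The sign of both Col4a1 probe 1 ratios and both Fn1 probe 2 ratios turned under some settings; these lay within 0.14 of 0 throughout. Col1a1 probe 2 ran from 0.38 to 1.03 and from 0.19 to 0.94. For the matrix list, 0 genes passed in either comparison in the main processing. Without the dye term 9 passed against siScramble and 9 against wt, and on the 4 individual arrays 5 and 2. Over all probes tested, 3.8 and 4.56% passed without the dye term and 2.91 and 1.14% on the individual arrays. In the main processing 0.121 and 0.0486% did. Neither setting cancels the dye effect of a probe. Leaving out a replicate gave 0 to 1 in each comparison, the 1 being Itgb4 without replicate 2 (adjusted p = 0.0456 and 0.0434 from limma). Without replicate 2, 0.193 and 0.178% of all probes passed. The cause of these shifts was not tested. Between siScramble and wt cells 0 member probes and 0 list genes passed under all settings run.

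With the replicate number as a block, which pairs both arrays of a culture (within-number correlation 0.541), 1 list gene passed against siScramble and 13 against wt. The same fit of 10 arrays passed 1 and 16 without the block, and the separate fits of 5 arrays 0 and 0, so the higher counts came with the joint fit. Over all probes, 0.359 and 8.17% passed with the block and 0.545 and 9.32% without it. In the separate fits 0.121 and 0.0486% did. The block changed no call between siScramble and wt for members or list. Of 16 bright list genes in 3 comparisons, 21 values came past the threshold under some setting and 1013 tested values, member probes included, stayed on their side. At 3 residual degrees of freedom, and with 56.8 to 68.2% of spots well above background, small changes and dim probes such as Adamts1 are out of reach.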
